A study of Mus musculus with 17 samples.

Results

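The genes described here are the 8 that encode the G1 cyclins and the kinases they activate: the D cyclins Ccnd1, Ccnd2 and Ccnd3, the E cyclins Ccne1 and Ccne2, and the cyclin-dependent kinases Cdk2, Cdk4 and Cdk6. They were taken by symbol from the 18836 genes listed in at least 1 of 17 RNA-seq libraries of mouse neural retinal progenitor cells (mNRPCs), and all 8 were listed in every library and passed the filter on low values. The cells are an adherent culture grown from the dissociated neural retina of adult C57BL/6 mice. BM is the basic medium, a serum-free N2 and B27 medium that all groups share. B is BM with bFGF, a mitogen of neural progenitors, C is BM with CHIR99021, an inhibitor of the kinase GSK-3, and BC is BM with both, and each was sampled on days 1, 3, 5 and 7 beside 1 day 0 control whose treatment is given as none. The culture had been established in medium with both factors, the study's accounts of the day 0 medium differ, and whether the libraries came from separate cultures is not given in the sources used here.

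D cyclins are the part of the cell cycle engine that reads growth factor signals. They bind Cdk4 and Cdk6, and the complexes phosphorylate the retinoblastoma protein, which then releases E2F factors that switch on cyclin E and other genes of DNA replication. Cyclin E binds Cdk2 and drives entry into S phase. Cyclin D1 is the main D cyclin of the developing retina, and GSK-3 is known for marking the cyclin D1 protein for export from the nucleus and breakdown. The libraries measure mRNA only, so protein levels, complexes and kinase activity were not measured.

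There was 1 library for each treatment and day, so no condition was replicated. The tests therefore rest on libraries that share a factor: 8 libraries with bFGF (B and BC) were set against 8 without (BM and C), and on a single day 2 against 2. Total expected counts ran from 17571973 to 19428744. Genes of several cell types were checked against the label. Of 6 retinal progenitor markers, Pax6, Six3, Nes, Sox2 and Hes1 were at 1 FPKM or more in all 17 libraries, whereas Rax, an early retinal progenitor gene of the embryo, never exceeded 0.07 FPKM. The summed FPKM of these 6 genes lay between 149 and 402 in BM and C, between 95.9 and 206 in B and BC, and was 109 on day 0. On day 7 alone it lay between 338 and 371 in BM and C and between 95.9 and 102 in B and BC. The 4 rod markers summed to at most 0.88 FPKM, the 3 endothelial markers to at most 0.09 FPKM with Cldn5 at 0 throughout, the 4 microglial markers to at most 2.48 FPKM and the 4 pigment epithelium markers to at most 1.40 FPKM. Of 5 markers of Mueller glia and astrocytes, Glul alone was at 1 FPKM or more in all libraries, and the 4 neuronal markers summed to between 1.90 and 10.4 FPKM, mostly from Tubb3. The 4 mesenchymal markers moved with bFGF: on day 7 they summed to between 147 and 158 FPKM in BM and C and to between 7.12 and 9.51 FPKM in B and BC, against 4.34 on day 0, with Pdgfrb and Col1a1 the highest. The part of these marker differences in the results was not tested. In bulk libraries, fewer cells that express a gene and less of its RNA in each cell cannot be told apart.

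FPKM scales reads by transcript length and library total, so levels of different genes can be compared on it. Over the 16 cultured libraries, Ccnd1 had the highest mean level at 301 FPKM, followed by Cdk4 at 140 FPKM, Ccnd3 at 56.5 FPKM, Ccnd2 at 44.7 FPKM, Cdk2 at 21.2 FPKM, Cdk6 at 10.6 FPKM, Ccne1 at 10.002 FPKM and Ccne2 at 2.84 FPKM. The order varied among neighbours: Cdk4 exceeded Ccnd1 in 3 of 17 libraries (C on days 3, 5 and 7), Ccnd3 exceeded Ccnd2 in 12 of 17, and Cdk6 exceeded Ccne1 in 10 of 17. Cdk2 lay below Ccnd2 and Ccnd3 and above Cdk6 and Ccne1 in all 17 libraries. Ccne2 was the lowest of the 8 in 16 libraries, and Cdk6 in the day 0 control.

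**Figure D1:**
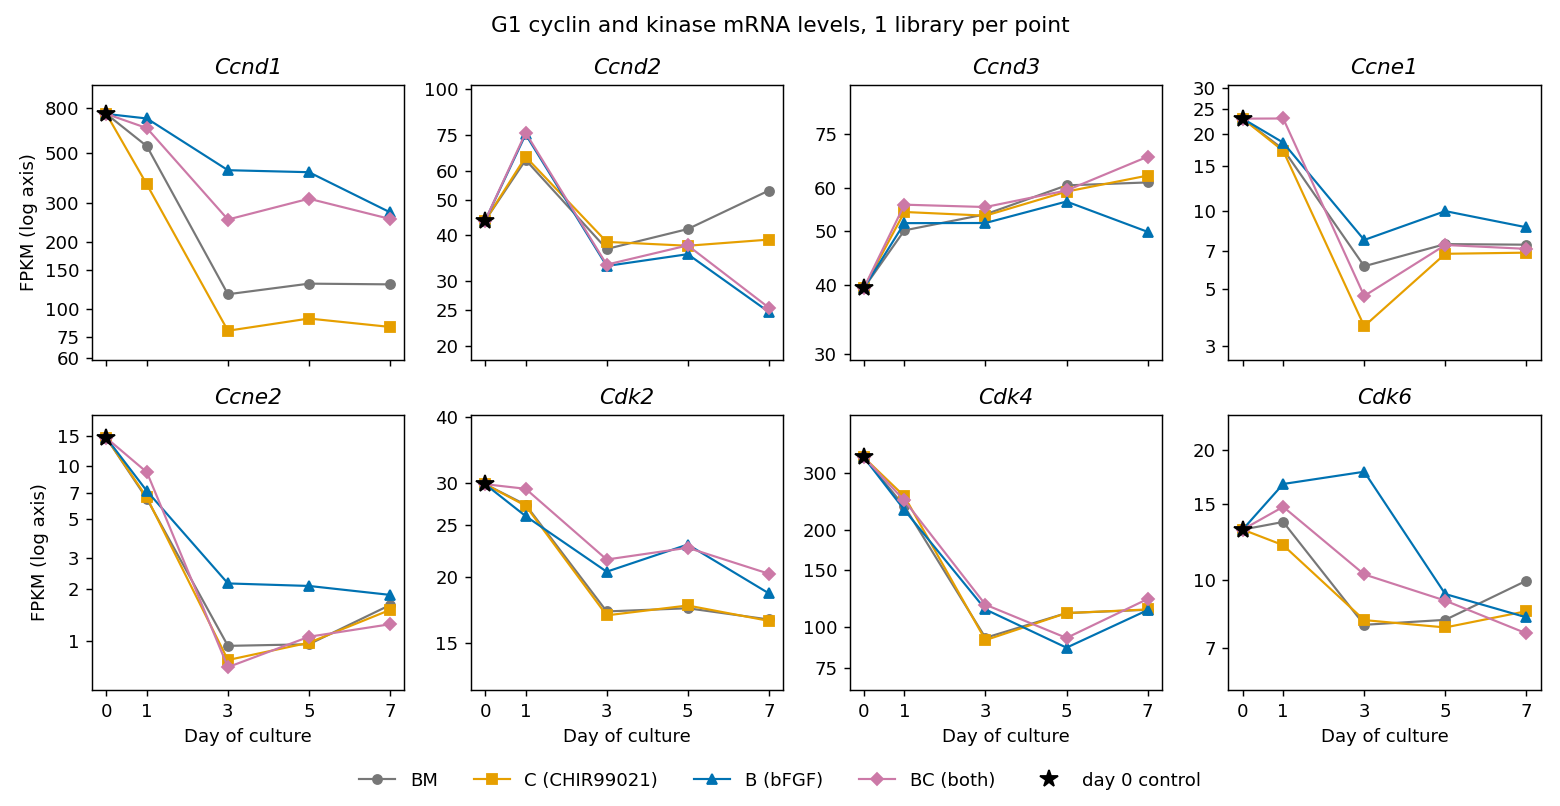
FPKM of each of the 8 genes (log axis) against the day of culture, 1 library per point, with the day 0 control as a star and lines joining the libraries of a treatment. Ccnd1 separated by treatment from day 3, with B and BC at 252 FPKM or more and BM and C at 130 FPKM or less, while Ccnd3 stayed between 39.5 and 68.3 FPKM in all 17 libraries.

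Ccnd1 (Entrez 12443, chr7:144929931-144939831 in GRCm38.p6) encodes cyclin D1 and was the gene of the 8 with the largest bFGF effect. It stood at 751 FPKM in the day 0 control. In BM it read 538 FPKM on day 1, 116 on day 3, 130 on day 5 and 129 on day 7. In C it read 362, 79.7, 90.4 and 82.9 FPKM on the same days. These libraries thus lost most of their Ccnd1 mRNA between day 1 and day 3 and changed little after that. With bFGF alone it read 717 FPKM on day 1, 420 on day 3, 411 on day 5 and 272 on day 7. In BC it read 649, 252, 313 and 253 FPKM. On each day both libraries with bFGF lay above both without, and the gap was narrowest on day 1. In the 8 pairs of libraries that share a day and differ in bFGF alone, the level with bFGF was between 1.33 and 3.61 times the level without. Being higher in all 8 pairs as deposited held for 10.6% of the 11272 genes tested. Relative to day 0, the day 7 level was 17.1% (BM), 11.0% (C), 36.1% (B) and 33.7% (BC).

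Ccnd2 (Entrez 12444, chr6:127125162-127152188), a close relative of Ccnd1 that is known for its role in neural progenitors and gonads, had another course. It read 43.8 FPKM on day 0 and was higher in all 4 day 1 libraries, at 64.1 (BM), 65.4 (C), 75.3 (B) and 76.1 FPKM (BC). On day 3 it lay between 33.0 and 38.3 FPKM in the 4 treatments. The treatments then parted. BM read 41.6 FPKM on day 5 and 52.9 on day 7, and C read 37.4 and 38.9. B read 35.5 FPKM on day 5 and 24.7 on day 7, and BC read 37.5 and 25.4. On day 7 both bFGF libraries thus lay below both others, the reverse of Ccnd1.

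Ccnd3 (Entrez 12445, chr17:47505051-47599689), the third D cyclin, had the narrowest range of the 8 genes as deposited. It read 39.5 FPKM on day 0 and 49.9 FPKM or more in all 16 cultured libraries. In BM it ran from 50.2 on day 1 to 61.3 FPKM on day 7, in C from 54.2 to 63.1, and in BC from 55.9 to 68.3, while B read 51.7 FPKM on day 1 and 49.9 on day 7. The highest of the 17 values was 1.73 times the lowest, against 9.43 times for Ccnd1 and 3.08 times for Ccnd2. With FPKM divided by the TMM factor, the log2 difference of Ccnd3 from day 0 went up to 1.11 (BC on day 7). That of Cdk2 went down to -1.04 (BM and C on day 7), so Ccnd3 did not have the narrowest range on that scaling.

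Because these courses differed, the make-up of the D cyclin mRNA shifted. Ccnd1 made up 90.0% of the summed D cyclin FPKM on day 0, with 5.25% from Ccnd2 and 4.73% from Ccnd3. Without bFGF its share was 53.0% in BM and 44.8% in C on day 7. With bFGF it was 78.4% in B and 73.0% in BC. Over days 3 to 7 the Ccnd1 share lay between 44.8% and 56.3% in the 6 libraries without bFGF and between 73.0% and 83.2% in the 6 with it, so the ranges did not overlap. The sum itself went from 834.8 FPKM on day 0 to 243 (BM), 184.9 (C), 346 (B) and 347 FPKM (BC) on day 7, so a larger share of another D cyclin is not a higher level of it. In C on day 7 Ccnd3 held 34.1% and Ccnd2 21.0%, and in BM 25.2% and 21.8%. Ccnd2 exceeded Ccnd3 on day 0 and in all 4 day 1 libraries, by 1.11 to 1.46 times, and lay below it in all 12 libraries from day 3, at 0.372 to 0.863 times. Shares and ratios within a library do not depend on how libraries are scaled to each other. They are descriptions of single libraries without a test. Counted in reads without division by length, the share of Ccnd1 on day 7 was 53.3% in BM (95% exact binomial interval 52.5 to 54.0%) and 80.9% in B (80.4 to 81.4%), intervals that cover counting error only. Reads that fit several D cyclins were split between them by the counting program, which could blur these shares to an unknown degree.

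**Figure D2:**
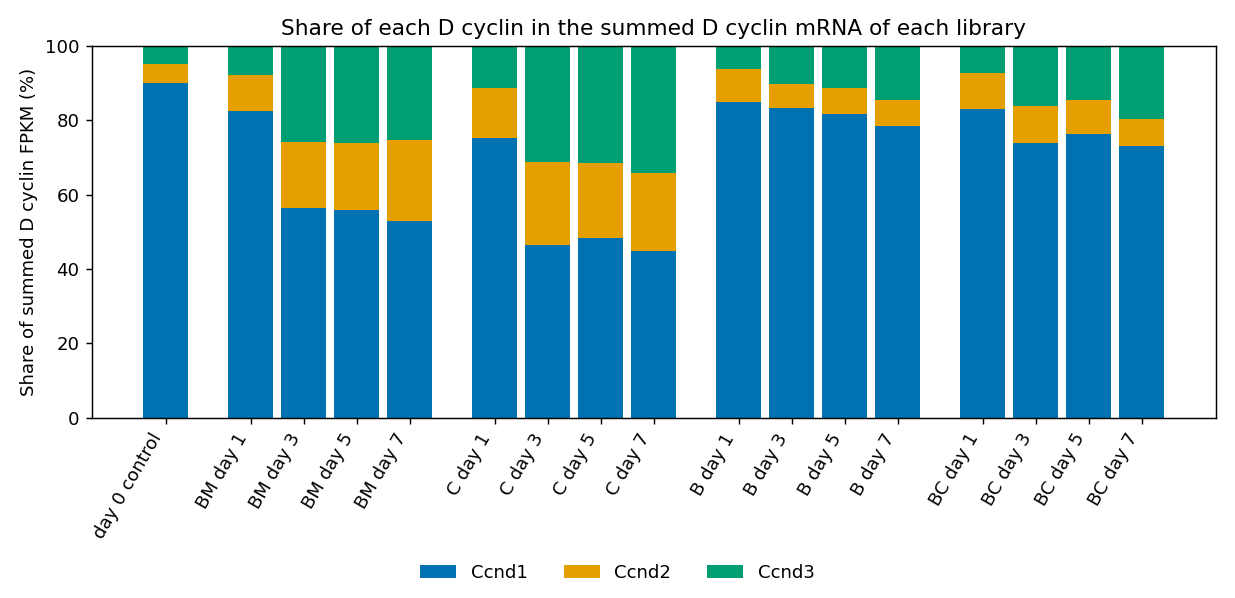
Share of Ccnd1, Ccnd2 and Ccnd3 in their summed FPKM (percent), 1 stacked bar per library, for day 0 and for days 1, 3, 5 and 7 of each treatment. The Ccnd1 share began at 90.0%. By day 7 it was 53.0% and 44.8% without bFGF (BM, C) and 78.4% and 73.0% with it (B, BC).

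Ccne1 (Entrez 12447, chr7:38097984-38107490) encodes cyclin E1 and was the E cyclin with the higher mRNA level. It read 22.9 FPKM on day 0. On day 1 BM and C read 17.4 and 17.2 FPKM, B read 18.5 and BC read 22.9. On day 3 all treatments were lower, with BM at 6.12, C at 3.58, B at 7.74 and BC at 4.69 FPKM. The CHIR99021 libraries of that day were the lowest of the whole series. By day 7 the values had drawn together, at 7.42, 6.91, 8.67 and 7.15 FPKM in the same order. In all 8 pairs the library with bFGF was higher, but only by 1.03 to 1.34 times as deposited.

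Ccne2 (Entrez 12448, chr4:11190433-11204779), which encodes cyclin E2, had the widest range of the 8 genes, its highest value being 20.5 times its lowest. It read 14.6 FPKM on day 0, between 6.52 and 9.26 FPKM on day 1, and between 0.71 and 2.14 FPKM from day 3. B was the highest of the 4 treatments on days 3, 5 and 7, at 2.14, 2.07 and 1.84 FPKM. BC, in contrast, was the lowest of the 4 on day 3, at 0.71 FPKM, and again on day 7, at 1.25 FPKM. The lowest value rests on an expected count of 36.7 (95% Poisson interval 25.8 to 50.7, counting error only), so the order among the low libraries is uncertain. Because Ccne2 was lower than Ccne1 from day 3 by a wider margin than before, the share of Ccne1 in the E cyclin FPKM went from 61.1% on day 0 to between 71.2% and 72.8% on day 1 and to between 78.3% and 88.6% from day 3.

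Among the kinases, Cdk4 (Entrez 12567, chr10:127063535-127067288), a partner of all D cyclins, had the highest mRNA level. It read 334 FPKM on day 0, and on day 1 BM read 236, C 254, B 230 and BC 246 FPKM. On day 3 BM and C read 92.8 and 91.3 FPKM, and B and BC read 114 and 117. On day 5 the order was turned, with 111 FPKM in both BM and C, 86.5 in B and 92.7 in BC. On day 7 the 4 treatments lay within 113 to 122 FPKM. In every medium Cdk4 thus lost most of its level by day 3, and as deposited the bFGF libraries stood above the others on day 3 and below them on day 5.

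Cdk6 (Entrez 12571, chr5:3341004-3531008), the other D cyclin kinase, was far lower. It read 13.1 FPKM on day 0. In B it read 16.7 FPKM on day 1 and 17.8 on day 3, the highest values of the series, then 9.30 and 8.22. In BC it read 14.8, 10.3, 8.98 and 7.55 FPKM on days 1, 3, 5 and 7. BM read 13.6, 7.90, 8.11 and 9.98 FPKM, and C read 12.1, 8.10, 7.79 and 8.49. The bFGF libraries were the higher ones through day 5, and on day 7 both lay below both others as deposited.

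Cdk2 (Entrez 12566, chr10:128697938-128705051), the kinase of cyclin E, changed least of the kinases, with a highest value 1.81 times the lowest. It read 29.9 FPKM on day 0 and between 26.0 and 29.3 FPKM on day 1. From day 3 it lay between 16.5 and 17.6 FPKM in the 6 libraries of BM and C. In the 6 libraries of B and BC it lay between 18.6 and 23.0 FPKM. The ranges of these groups did not overlap. Of the 8 genes this held over days 3 to 7 for Cdk2 and Ccnd1, as it did for 41.6% of all genes tested in either direction.

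As deposited, 6 of the 8 genes were lower on days 3, 5 and 7 than on day 1 in all 4 treatments, the exceptions being Ccnd3 and Cdk6. With FPKM divided by the TMM factor this held for Cdk2 in 3 of 4 treatments. The share of all genes that meet this rule was not counted, and falls were common. On library totals, 30.2% of all genes tested fell from day 1 to day 7 without bFGF and 56.1% with it. The sequences before the starts of Ccne1, Cdk2 and Cdk4 are shown, being those of the 6 lower genes that the table of start regions holds. They are the 250 bases before the start in RefSeq (GRCm38.p6), on the strand of the gene, at chr7:38107491-38107740 (minus), chr10:128705052-128705301 (minus) and chr10:127063285-127063534 (plus). Capitals mark matches, on either strand, to the motifs named after them.
Ccne1: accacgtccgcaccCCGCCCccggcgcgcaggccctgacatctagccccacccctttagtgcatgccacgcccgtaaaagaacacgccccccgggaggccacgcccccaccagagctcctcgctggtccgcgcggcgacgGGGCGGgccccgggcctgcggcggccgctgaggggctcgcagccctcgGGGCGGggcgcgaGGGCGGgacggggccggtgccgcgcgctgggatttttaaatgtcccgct
Cdk2: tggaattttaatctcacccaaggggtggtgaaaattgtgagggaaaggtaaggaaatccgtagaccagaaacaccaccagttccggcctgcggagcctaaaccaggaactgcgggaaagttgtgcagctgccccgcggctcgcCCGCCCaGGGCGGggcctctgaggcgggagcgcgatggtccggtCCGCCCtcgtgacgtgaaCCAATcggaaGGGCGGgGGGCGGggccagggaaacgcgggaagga
Cdk4: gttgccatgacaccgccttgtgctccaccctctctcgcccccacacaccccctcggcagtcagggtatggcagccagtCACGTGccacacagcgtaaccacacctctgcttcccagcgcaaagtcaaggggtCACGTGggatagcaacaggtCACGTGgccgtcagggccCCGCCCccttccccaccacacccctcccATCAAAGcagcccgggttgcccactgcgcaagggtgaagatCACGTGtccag
The GC box GGGCGG, a site of the factor Sp1, was found 4 times before Ccne1, 5 times before Cdk2 and once before Cdk4, and 32.7% of 32851 windows of this length hold it. In the windows not shown, it was found 2 times and 1 time before the starts of Ccnd3 and not before Cdk6. CCAAT stands before Cdk2, 45 bases from the start, 1 time in a window of Ccnd3, and in 33.85% of windows. Before Cdk4, CACGTG, the E-box that Myc and related factors bind, was found 4 times, at 172, 118, 98 and 11 bases from the start, and 6.02% of windows hold at least 1. CACGTG was also found 1 time before Cdk6, at 220 bases. It was added to the search after the sequence had been read. The TCF/LEF motif CTTTGAT was found 1 time before Cdk4 (3.21% of windows), and neither of the E2F motifs TTTCGCGC (0.256%) and TTTGGCGC (0.417%) in the 6 windows of the 5 genes that the table holds. The other letters searched, CTTTGAA (4.46%), the AP-1 site TGACTCA (4.46%) and the CRE site TGACGTCA (1.55%), were not in them either. No matches overlapped. A match of letters is not a bound site, and no binding was measured.

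Cyclin to kinase ratios within each library followed from these courses. The summed D cyclins were 2.40 times the sum of Cdk4 and Cdk6 on day 0. Over days 3 to 7 the ratio lay between 1.52 and 2.05 in BM and C and between 2.67 and 5.25 in B and BC, with the highest value in B on day 5. Ccnd1 alone was 2.25 times Cdk4 on day 0, 4.75 times in B on day 5, and 0.730 times in C on day 7. The E cyclins behaved otherwise. Their sum was 1.25 times Cdk2 on day 0 and between 0.875 and 1.10 times on day 1, and over days 3 to 7 it lay between 0.258 and 0.544 times in BM and C and between 0.251 and 0.565 times in B and BC, ranges that overlapped almost completely. Cdk6 made up 3.77% of the Cdk4 and Cdk6 FPKM on day 0 and at most 13.5% (B on day 3), so Cdk4 was the main D cyclin kinase mRNA in every library.

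**Figure D3:**
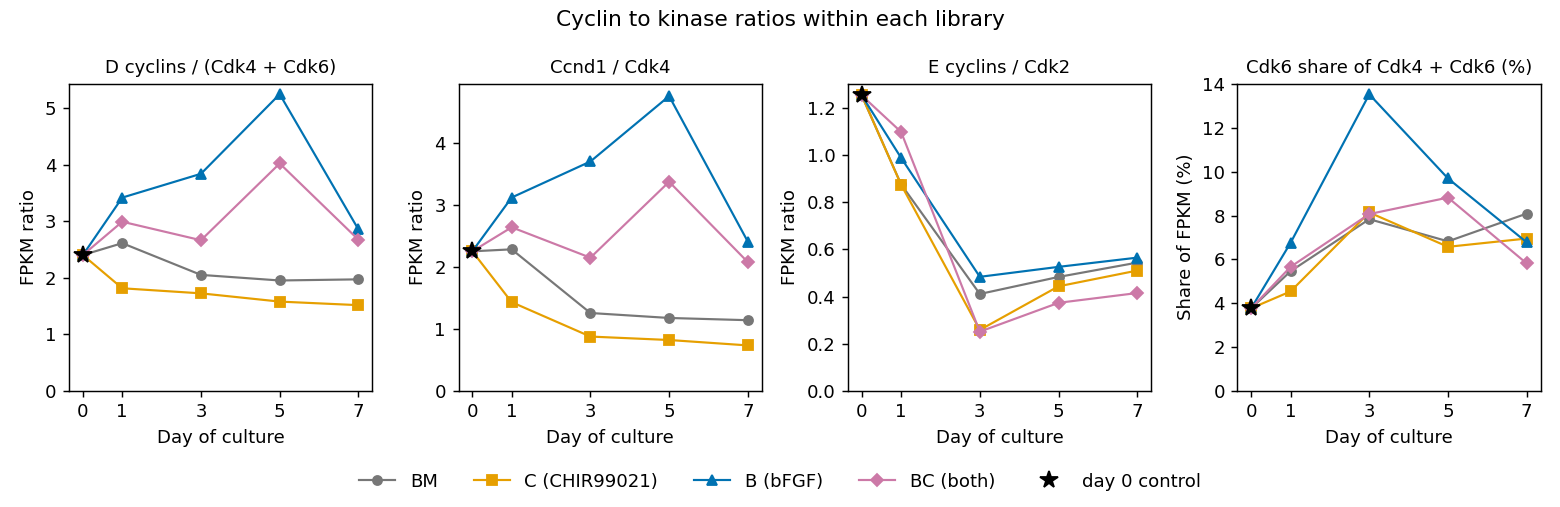
FPKM ratios within each library against the day of culture: the D cyclins over Cdk4 and Cdk6, Ccnd1 over Cdk4, the E cyclins over Cdk2, and the share of Cdk6 in Cdk4 and Cdk6 (percent), 1 library per point and day 0 as a star. The first and second panels separate B and BC (2.67 to 5.25 for the D cyclins from day 3) from BM and C (1.52 to 2.05), and the E cyclin panel does not.

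Against day 0, Ccnd1, Ccne1, Ccne2 and Cdk4 were at least 2 times lower on day 7 in each of the 4 treatments on the log2(FPKM + 1) scale, and the other 4 genes were not. As deposited this was 4 of the 8 genes in each, where 13.0% of 11258 genes were that much lower in BM, and 13.9%, 23.2% and 25.6% were in C, B and BC. With FPKM divided by the TMM factor, Cdk2 joined the 4 genes in BM and C. These differences are between single libraries and have no replicate check.

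The tests were run on the rounded expected counts with edgeR's quasi-likelihood test and Benjamini-Hochberg adjustment over all genes. They scale libraries by TMM factors, which set the typical gene to no change. The factors were 0.803 and 0.816 in B and BC on day 5 and 0.793 and 0.755 on day 7, against 1.02 to 1.13 in the other 12 libraries, so the choice matters on those days. Scaled by library totals alone, the median gene differed with bFGF by -0.29 on the log2 scale over all days, by -0.11 on day 3, by -0.46 on day 5 and by -0.54 on day 7. Fold changes below are relative to the median gene, and those on library totals are given where the call or the direction of a tested bFGF effect differs.

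For Ccnd1 and Cdk2 alone, the bFGF effect over days passed the threshold both under TMM scaling and on library totals. Over days 1 to 7, 7 of the 8 genes rose with bFGF relative to the median gene, where 34.6% of all genes tested rose and 33.9% fell. On library totals 2 of the 8 rose, where 19.9% of all genes did and 50.6% fell. Ccnd1 rose by 1.67 ± 0.19 (log2 fold change ± SE, adjusted p = 5.65e-05), and Cdk2 by 0.56 ± 0.10 (adjusted p = 0.000737). These hold on library totals too. Ccne1 rose by 0.55, Ccne2 by 0.66, Cdk6 by 0.56, Cdk4 by 0.30 and Ccnd3 by 0.29 relative to the median gene, with adjusted p between 0.000794 and 0.00996. On library totals none of these 5 passed the threshold, and the value of Ccnd3 had the opposite sign (-0.005). Ccnd2 differed by 0.06 (95% interval -0.16 to 0.28, adjusted p = 0.598), and by -0.23 (adjusted p = 0.127) on library totals.

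Day by day the pattern changed. On day 1 only Ccnd1 rose, by 0.71 ± 0.15 (adjusted p = 0.0142), where 6.21% of genes rose. That call was lost without the BM, C or BC library of day 1, with log2 fold changes of 0.75, 0.62 and 0.50 (adjusted p = 0.0892, 0.115 and 0.212). Cdk4 differed by 0.04 on that day and by -0.04 on library totals. Cdk6 (0.37) passed on day 1 without the B or BC library of day 3 (0.34 and 0.37, adjusted p = 0.0154 and 0.0115). On day 3 the rise of Ccnd1 was 1.86, and Cdk6 (0.88), Cdk2 (0.47) and Cdk4 (0.43) rose as well, with adjusted p of at most 0.00146, where 25.4% of genes rose. With the libraries of day 3 alone, Cdk4 and Cdk6 did not pass (adjusted p = 0.0502 and 0.0659), and on day 1 alone neither did Ccnd1 (0.64, adjusted p = 0.101). Ccne1 and Ccne2 did not pass on day 3 (0.46 and 0.72), but did without the BC library of that day (0.72 with adjusted p = 0.0296, and 1.28 with adjusted p = 0.0093). Ccne1 also passed without the BM library of that day (0.79, adjusted p = 0.0465).

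On day 5 all the genes but Cdk4 rose relative to the median gene, where 37.2% of genes rose. Ccnd1 had its largest effect then, at 2.18 ± 0.16 (adjusted p = 1.4e-07), and Cdk2 rose by 0.82. On library totals the rises of Ccne1, Ccne2 and Cdk6 no longer passed, Ccnd2 and Ccnd3 turned negative (-0.11 and -0.02), and Cdk4, at 0.14 under TMM scaling, became a fall (-0.30, adjusted p = 0.00261). Single libraries also decided calls on this day. Ccnd2 (0.33) was lost without the BM, C or BC library of day 5 (0.37, 0.26 and 0.28, adjusted p from 0.0509 to 0.154), with the libraries of day 5 alone (0.31, adjusted p = 0.0561) and with a minimum mean of 5 FPKM (0.21, adjusted p = 0.128), and Ccne1 (0.72) without BM or B (0.64 and 0.59, adjusted p = 0.0695 and 0.0807). Ccne2 (1.05) was lost without BM, B or C (0.86, 0.595 and 1.21, adjusted p = 0.157, 0.3 and 0.0517), and Ccnd3 (0.42) without C (0.33, adjusted p = 0.0558).

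On day 7, Ccnd1 rose by 1.90 ± 0.16 (adjusted p = 3e-07) and Cdk2 by 0.87 ± 0.10 (adjusted p = 3.25e-06), and Cdk4 (0.60), Ccnd3 (0.49) and Ccne1 (0.68) rose relative to the median gene, where 38.8% of genes rose. On library totals Cdk4 (0.06) and Ccne1 (0.14) did not pass, and Ccnd3 had the opposite sign (-0.05). Ccne1 also lost its call without the BM or BC library of day 7 (0.58 and 0.67, adjusted p = 0.0915 and 0.0534). Ccnd2 was the gene that fell, by 0.30 ± 0.12 (adjusted p = 0.0333), where 39.6% of genes fell, and its call was lost without the BM or B library of day 7 (-0.08 and -0.20, adjusted p = 0.521 and 0.227) and with the libraries of day 7 alone (-0.33, adjusted p = 0.123). On library totals its fall was larger, at -0.84 (adjusted p = 2.52e-05). Ccne2 (0.53) and Cdk6 (0.32) did not pass and had the opposite sign on library totals (-0.0065 and -0.22), and Cdk6 passed without the B or BC library of day 3 (0.30 and 0.32, adjusted p = 0.0046 and 0.00407).

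**Figure D4:**
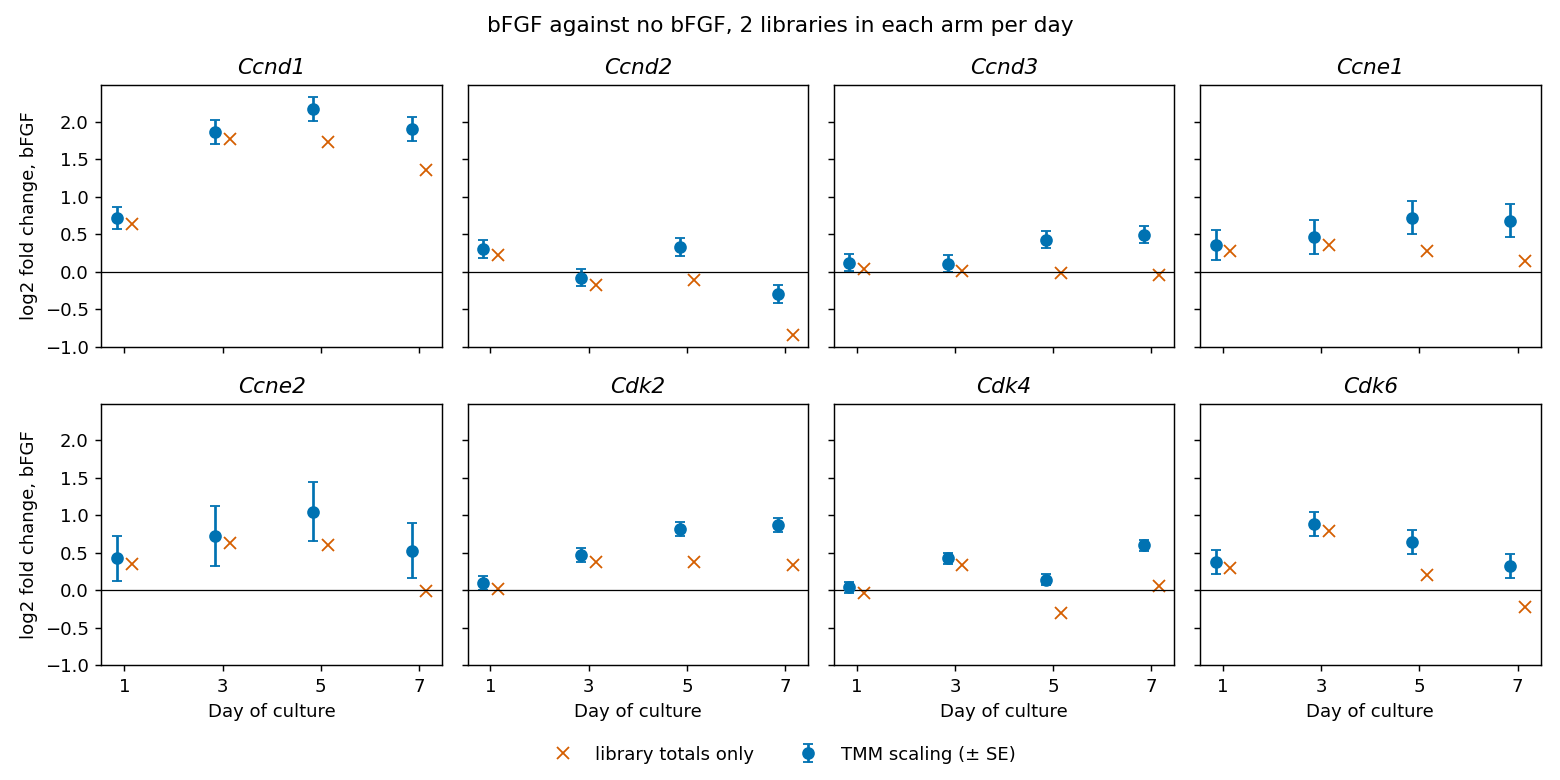
Log2 fold change with bFGF on each day, from 2 libraries with bFGF against 2 without, for the 8 genes. Circles with bars are values ± SE under TMM scaling and crosses are values on library totals alone. Ccnd1 stayed above 0 on all days under both, Ccnd3 lay at 0.49 (circle) and -0.05 (cross) on day 7, and Cdk4 lay at 0.14 and -0.30 on day 5.

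Whether the bFGF effect itself differed between days was tested jointly, days 3, 5 and 7 against day 1 in 1 test per gene. It did for 4 of the 8 genes, where it did for 76.3% of all genes. Adjusted p was 0.000316 for Ccnd1, 0.000629 for Cdk2, 0.00171 for Cdk4 and 0.0107 for Ccnd2, and between 0.0767 and 0.655 for the other 4. This joint p belongs to no single day. In the joint test Ccnd3 passed without the B or the BC library of day 7 (adjusted p = 0.00138 and 0.0326), with RLE factors (0.049) and in DESeq2 (0.0362). Cdk6 passed it without the BC library of day 3 (adjusted p = 0.000375) and on library totals (0.00744).

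The difference between day 7 and day 1 was also tested by itself, a test added after the data had been seen, in which 65.4% of all genes passed. The bFGF effect on Ccnd1 was larger on day 7 by 1.19 ± 0.21 (adjusted p = 0.000413), that on Cdk2 by 0.78 ± 0.13 (adjusted p = 0.000256) and that on Cdk4 by 0.56 ± 0.11 (adjusted p = 0.000613). For Ccnd2 the difference was -0.60 ± 0.17 (adjusted p = 0.00713). Ccnd3 (0.37), Ccne1 (0.33), Ccne2 (0.10) and Cdk6 (-0.05) did not pass. On library totals Cdk4 differed by 0.099 ± 0.10 (adjusted p = 0.416) and did not pass, and Cdk6 differed by -0.51 ± 0.21 with an adjusted p that rounds to the threshold. Ccnd3, Ccne1 and Ccne2 had the opposite sign there (-0.088, -0.13 and -0.35) and did not pass.

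Most of these genes fell with time in culture, with or without bFGF. Between day 1 and day 7 without bFGF, 7 of the 8 genes fell and 0 rose, where 31.5% of genes fell and 32.3% rose. On library totals these counts were again 7 and 0, where 30.2% of genes fell and 33.3% rose. The log2 fold change was -2.12 ± 0.16 for Ccnd1, -2.09 ± 0.34 for Ccne2, -1.298 ± 0.21 for Ccne1 and -1.13 ± 0.08 for Cdk4, with adjusted p of at most 0.00019. Cdk2 (-0.78), Ccnd2 (-0.52) and Cdk6 (-0.50) fell by less, and Ccnd3 differed by 0.18 (95% interval -0.06 to 0.43), which passed without the B or BC library of day 7 (0.18 each, adjusted p = 0.0336 and 0.0333). The 3 genes whose start regions were printed, Ccne1, Cdk2 and Cdk4, are among those that fell. Ccnd3, with the GC box in both of its start regions and CCAAT in 1 of them, did not fall. Cdk6, whose start region holds neither, fell. A link between these motifs and the falls was not tested. With bFGF, 6 of the 8 fell, where 39.5% of genes fell. The values were -1.99 ± 0.34 for Ccne2, -1.13 ± 0.12 for Ccnd2, -0.97 ± 0.21 for Ccne1, -0.93 ± 0.15 for Ccnd1, -0.58 ± 0.08 for Cdk4 and -0.55 ± 0.16 for Cdk6, with adjusted p of at most 0.00705. Ccnd3 rose by 0.56 ± 0.11 relative to the median gene, where 35.8% of genes rose, and by 0.12, not past the threshold, on library totals. Cdk2 differed by -0.003 (95% interval -0.21 to 0.20) under TMM scaling and fell by 0.44 (adjusted p = 0.000564) on library totals. On library totals 7 of the 8 genes thus fell with bFGF and 0 rose, where 56.1% of all genes fell and 22.1% rose. Without the C library of day 7 the fall of Cdk6 without bFGF was lost (-0.51, adjusted p = 0.0591), and without the B library of day 7 the fall with bFGF was (-0.47, adjusted p = 0.0642).

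With CHIR99021, 0 of the 8 genes passed the threshold in edgeR, 2 had an unadjusted p under 0.05 (Ccnd1 and Ccne1), and 0.337% of all genes passed in either direction (38 of 11272, 6 higher and 32 lower, and 1126 at an unadjusted p under 0.05). DESeq2 called 281 genes and 0 of the 8. The largest value was that of Ccnd1, which was lower with CHIR99021 in 8 of 8 pairs, at 0.600 to 0.933 times the level without it, as 7.0% of genes were. Its log2 fold change was -0.46 ± 0.18 (95% interval -0.85 to -0.07, unadjusted p = 0.0252, adjusted p = 0.4). Ccne1 was lower in 7 of 8 pairs (-0.26, adjusted p = 0.496) and Cdk6 in 7 of 8 (-0.20, adjusted p = 0.574). For Cdk2, Cdk4 and Ccnd3 the intervals reached from -0.16, -0.11 and -0.07 up to 0.29, 0.24 and 0.28. The difference in the bFGF effect with and without CHIR99021 passed for 0 of the 8 genes, in edgeR and in DESeq2, with no unadjusted p under 0.05, and for 0.00887% of all genes (1 of 11272, and 178 at an unadjusted p under 0.05). The widest interval was that of Ccne2, from -1.44 to 0.14 around -0.65.

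The other genes of the pathway were counted by role, with the same test and relative to the median gene. Of 7 genes for CDK inhibitors, 4 rose with bFGF over days 1 to 7 and 0 fell (median log2 fold change 0.85, against -0.002 over all genes), where 34.6% of all genes rose and 33.9% fell. On library totals 4 rose and 2 fell, where 19.9% and 50.6% of all genes did. Cdkn1a, which encodes p21, read between 1.95 and 8.92 FPKM in BM and C and between 11.9 and 47.8 FPKM in B and BC, and rose by 2.89 ± 0.47 (adjusted p = 0.000357). Cdkn2d, which encodes the Cdk4 and Cdk6 inhibitor p19, rose by 1.08. Cdkn2c, at -0.18, and Cdkn1b, which encodes p27, at -0.09, did not pass, but both fell on library totals (-0.47 and -0.38, adjusted p = 0.00198 and 0.0021). Cdkn2c was lower with bFGF in all 8 pairs as deposited, for which the share of all genes was not counted. Higher mRNA of Ccnd1 and of Cdkn1a thus stood in the same libraries. As deposited, the mean of the 8 pairs was above 0 for 5 of the 7. Of 3 pocket proteins, Rbl1 rose by 0.48, and Rb1 (-0.30) and Rbl2 (-0.21) fell. Of 5 E2F factors 4 rose, E2f5 most at 0.69, and E2f3 differed by -0.002. On library totals Rb1 and Rbl2 fell, Rbl1 (0.19) did not pass, and 1 of the 5 E2F factors, E2f5, rose (0.40). The sign of the mean over pairs as deposited was that of the fit for each pocket protein and E2F factor named.

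Of the 13 E2F target genes of DNA replication, all 13 rose with bFGF (median 0.97), where 34.6% of all genes rose. On library totals 12 of 13 rose, where 19.9% of all genes did, Mcm7 (0.28) being the one that did not pass. As deposited, the mean of the 8 pairs was above 0 for all 13 (median 0.63). Ccna2, the cyclin that follows cyclin E on Cdk2, read 12.2 FPKM in BM and 108 FPKM in B on day 7 and rose by 2.30 ± 0.44 (adjusted p = 0.000861). Cdt1, a licensing factor, rose by 2.01. The smallest rises were those of Mcm7 (0.57) and Mcm6 (0.66), subunits of the replicative helicase. Between day 1 and day 7, 13 of 13 fell without bFGF (median -2.02), where 31.5% of all genes fell. With bFGF 11 of 13 fell (median -0.87), where 39.5% of all genes did, Ccna2 (0.32) and Cdt1 (0.39) being the 2 that did not pass. On library totals 13 and 11 fell again, where 30.2% and 56.1% of all genes did. Among the genes of cyclin and inhibitor turnover, Cks1b, the partner of Skp2, rose by 1.87, Skp2 by 0.65, and Fbxw7, whose product directs cyclin E to breakdown, fell by 0.56, while Ambra1, whose product directs the D cyclins to breakdown, differed by -0.11 and fell by 0.40 on library totals (adjusted p = 0.00839). The other 3 kept their direction and passed on library totals. Of the CDK-activating kinase, Mnat1 rose by 0.51, Cdk7 fell by 0.49 and Ccnh differed by 0.10, which was -0.12 over the pairs as deposited. Cdc25a, the phosphatase that activates Cdk2, rose by 0.37, and on library totals it differed by 0.08 and did not pass.

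**Figure D5:**
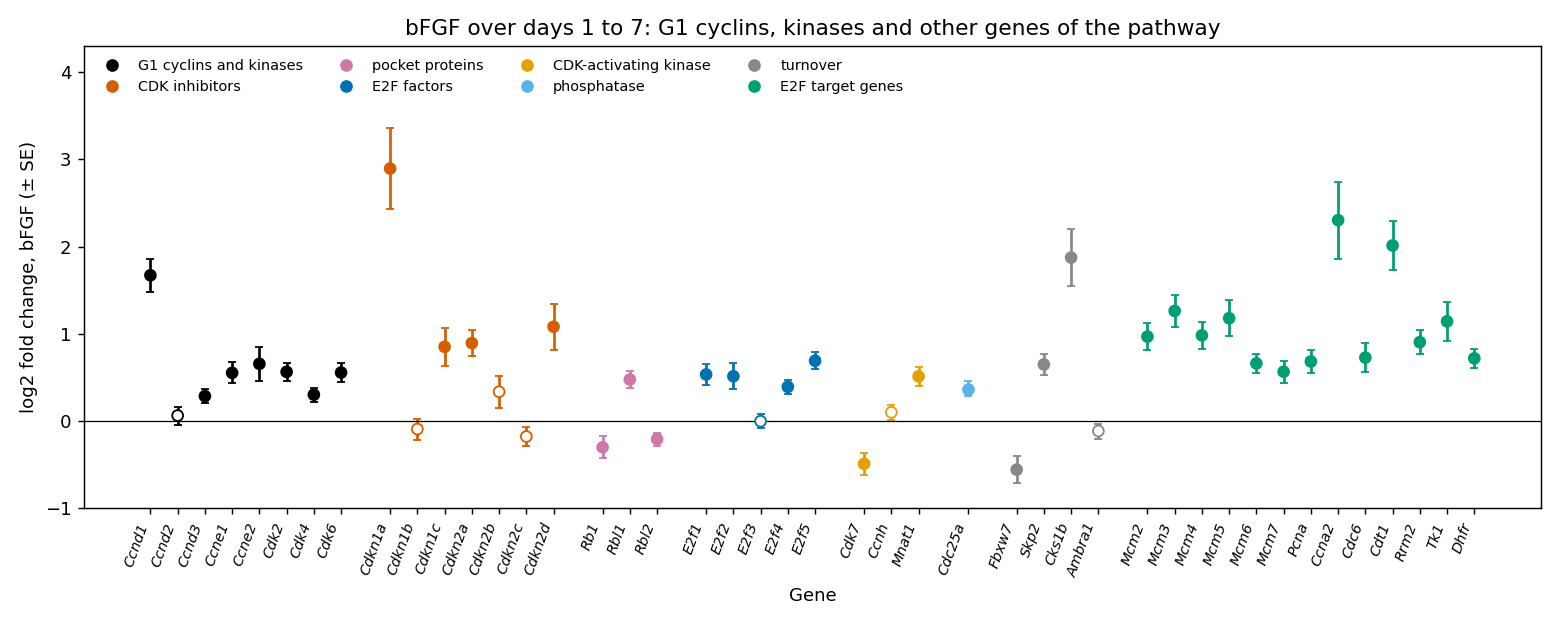
Log2 fold change ± SE with bFGF over days 1 to 7 (8 libraries with bFGF against 8 without, TMM scaling) for the 8 genes and the other genes of the pathway, coloured by role. Filled points passed an adjusted p of 0.05. Cdkn1a (2.89) and Ccna2 (2.30) exceeded Ccnd1 (1.67), and the 13 E2F target genes lay above 0.

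The courses of the 8 genes were compared by Pearson's r of log2(FPKM + 1) over the 17 libraries, which share days, treatments and the scaling to library totals, so r is a description. Cdk2 followed Ccnd1 (0.92), Ccne2 followed Ccne1 (0.96) and Cdk4 (0.94), and Ccne1 followed Cdk4 (0.90). Ccnd2 followed Ccnd1 only loosely (0.40), and Ccnd3 ran against all the other 7 (-0.20 to -0.63). Among genes with a mean of at least 5 FPKM, those most like Ccnd1 were Lipg (0.98), Cep55 (0.97) and Ndufaf6 (0.97). Those most like Ccnd2 were Ibtk (0.96), Uprt (0.94) and Atm (0.94), and those most like Ccnd3 were 2300009A05Rik (0.86), Rbfox2 (0.86) and B4galt3 (0.84). Ccne1 was most like Phgdh, Gfm1 and Foxk2 (0.97 each), and Ccne2 like Gfm1, Timm23 and Hspa14 (0.98 to 0.99). Cdk2 was most like Lrrc40, H2afz and Lss (0.97 each), Cdk4 like Rfc5, Tamm41 and Mrps22 (0.99 each), and Cdk6 like Heatr5a (0.95), Apbb2 (0.93) and Myof (0.92).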

How the data were processed

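The authors sequenced poly-A RNA on the BGISEQ-500 and mapped reads with Bowtie2, to mm10 per the labels. The quantification program is RSEM in the sample records and eXpress in the paper. Per gene, the authors deposited an expected count (reads that fit several genes are divided among them), an FPKM value and a transcript length, listing genes from 0.01 FPKM. A gene not listed was read as 0. The length was the deposited transcript length and was used through FPKM.

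Groups came from the sample titles. The test on rounded expected counts was the quasi-likelihood test of edgeR 4.0.16 (R 4.3.3, TMM factors, Benjamini-Hochberg, threshold 0.05). It covered the 11272 genes whose FPKM averaged 1 or more over the 16 cultured libraries. The models were bFGF, CHIR99021 and day, the same with the interaction of the factors, and bFGF within each day. With no replicates, p-values measure departures from these models and not the spread between cultures. The biological coefficient of variation was 24.7%, 25.4% and 10%. Pairs and day 0 were compared on log2(FPKM + 1). On simulated data, the day 7 comparison over 11272 genes recovered 60.2% of genes changed by 1 and 100% of those changed by 2 on the log2 scale, and bFGF over days 100% of both. The simulated bFGF effect was the same on all days, with no effect of day and the same dispersion for all genes, unlike these data. The recovered shares are thus not the power of the tests in these data. Alternatives used DESeq2 1.42.0, limma 3.58.1, RLE factors, library totals, other filters, a pseudocount of 0.1, fewer days, libraries left out in turn and, added after the data had been seen, day 7 against day 1 alone for the difference in the bFGF effect. Python 3.11.15 with pandas 2.3.3, numpy 2.4.6, scipy 1.17.1 and matplotlib 3.10.9 made the tables and plots. Promoters and gene positions came from RefSeq. The 8 genes, the lists and the tests were chosen with earlier results of these data known. Named genes were the 8, of each list up to 4 with the largest and smallest bFGF effect over days, and for each of the 8 the 3 with the highest r. One gene of the marker lists is not reported here.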

Additional observations from a re-analysis of the deposited data

Results flagged for a closer look

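The bFGF effect differed between days for 4 of the 8 genes, where it did for 76.3% of all genes tested. The test was of that difference (edgeR, 3 later days against day 1 in 1 test). The joint test gives no p for a single day. Between day 1 and day 7 the log2 effect of bFGF differed by 1.19 for Ccnd1, by 0.78 for Cdk2, by 0.56 for Cdk4 and by -0.60 for Ccnd2. Each passed when that difference was tested by itself, as 65.4% of all genes did. On library totals the values were 0.72 for Ccnd1, 0.32 for Cdk2, 0.099 for Cdk4 and -1.06 for Ccnd2. There all 4 genes passed the joint test, but the day 7 value of Cdk4 did not pass by itself (adjusted p = 0.416). In limma on log2(FPKM + 1) Cdk2 did not pass the joint test (adjusted p = 0.0713).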

How the results depend on the processing

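Of the 8 genes, bFGF over days gave 2 calls in place of 7 on library totals and in limma on log2(FPKM + 1) or log2(FPKM + 0.1), which use FPKM unscaled. Day 5 gave 3 in place of 7 and day 7 gave 3 in place of 6 under the same 3 settings. In that order of settings, the log2 value turned for Ccnd3 over days (-0.0049, -0.023 and -0.023), Ccnd3 on day 5 (-0.019, -0.045 and -0.045), Ccnd3 on day 7 (-0.051, -0.090 and -0.092), Ccnd2 on day 5 (-0.113, -0.109 and -0.112) and Cdk4 on day 5 (-0.301, -0.302 and -0.305). On library totals the calls over all genes also shifted, from 3896 higher and 3817 lower to 2245 and 5702 for bFGF over days, from 2865 and 2815 to 2404 and 3590 on day 3, from 4192 and 4350 to 2404 and 6389 on day 5, and from 4370 and 4462 to 2467 and 6650 on day 7. With the libraries of a day alone, the 8 genes gave 0 calls on day 1 in place of 1 and 2 on day 3 in place of 4, Ccnd2 lost its calls on days 5 and 7, and all genes 2534 on day 3 in place of 5680.
For CHIR99021 over days, calls over all genes were 22 with no filter, 281 in DESeq2 and 24 without day 1, in place of 38. For the interaction they were 5 in DESeq2, 2 without day 1, and 0 on library totals and in both limma settings, in place of 1. With 1 library left out in turn, the 8 genes gave 0 to 2 calls on day 1, 4 to 7 on day 5 and 4 to 7 on day 7, and all genes 145 to 1778 on day 1, 1 to 28 for CHIR99021 and 0 to 1 for the interaction. The share of Ccnd1 in the D cyclins by reads not divided by length was 89.5% on day 0, 47.5% in C, 80.9% in B and 77.4% in BC on day 7, and TPM gave the FPKM shares by construction.
Of 1894 single-gene values over all alternatives, 1803 stayed on the same side of the threshold (56 of them changed sign without a call), 56 were lost, 20 gained and 15 reversed. Leaving out 1 library accounts for 18 of those lost and 12 of those gained, and library totals for 10 lost, 2 gained and 5 reversed. The cause of these changes was not tested.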

Other observations

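Of the 7 genes for CDK inhibitors, 5 rose and 0 fell between day 1 and day 7 with bFGF, where 35.8% of all genes rose and 39.5% fell (edgeR, TMM scaling, as for all values here but those named otherwise). Without it 1 rose and 3 fell, where 32.3% of all genes rose and 31.5% fell. On library totals 5 rose and 2 fell with bFGF, where 22.1% and 56.1% of all genes did. Also on library totals, 1 rose and 3 fell without it, where 33.3% and 30.2% of all genes did. Cdkn1a, which encodes p21, read 7.29 FPKM in BM and 12.04 FPKM in B on day 1, and 3.27 and 47.8 FPKM on day 7. Its log2 fold change over time was -1.09 without bFGF and 2.39 with it, and the bFGF effect on day 7 exceeded that on day 1 by 3.49 (that difference tested by itself, adjusted p = 5.99e-06). Cdkn2d, which encodes the Cdk4 and Cdk6 inhibitor p19, went the same way, with -0.51 without bFGF and 1.65 with it (difference 2.15, adjusted p = 1.93e-06). Cdkn1b, which encodes p27, rose in both, by 0.77 and by 1.40.

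Of the genes of cyclin and inhibitor turnover, Cks1b and Fbxw7 are given. Cks1b, whose product helps Skp2 to mark p27 for breakdown, read 262 FPKM on day 0, and on day 7 it read 43.6 and 37.7 FPKM in BM and C and 249.7 and 243 FPKM in B and BC (difference in the bFGF effect between day 7 and day 1 2.89, adjusted p = 4.62e-07). Fbxw7 ran the other way, from 5.50 FPKM on day 0 to 7.47 and 7.66 FPKM in BM and C and to 2.01 and 1.91 FPKM in B and BC on day 7 (difference -1.38, adjusted p = 3.16e-06). These genes stood in lists drawn up with earlier results of these data known.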
